A study of Canis lupus familiaris with 18 samples.

Results

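Single-animal E2F1 regions outside all H3K27ac are stretches of the dog genome where an E2F1 peak was called in exactly 1 of 6 dogs and where none of the 6 dogs had an H3K27ac peak. They were defined by measured values, the positions of peaks in the 6 E2F1 and 6 H3K27ac lists. E2F1 peaks on chromosomes 1 to 38 were merged wherever they overlapped or touched, and a merged region was a member if it held peaks of 1 dog only and shared no base with any H3K27ac peak. The rule kept 237585 of 512222 merged regions (46.4%). Of the other merged regions, 172553 (33.7%) were called in a single dog but lay inside H3K27ac, meaning that they shared at least 1 bp with it. Regions with peaks of at least 2 dogs, called recurrent here, numbered 36934 (7.21%) outside H3K27ac and 65150 (12.7%) inside it. These shares follow from the rule and are given as a description.

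E2F1 is a transcription factor that binds DNA together with DP partner proteins, is held in check by the retinoblastoma protein and is best known for activating genes of the cell cycle and of DNA replication. H3K27ac is an acetyl mark on histone H3 that is found at active promoters and enhancers. ChIP-seq recovers DNA bound by a protein or carrying a mark with an antibody, and a peak is a stretch where the recovered fragments pile up above a local background.

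The tissue was brainstem (pons) of old male dogs, 12 to 16 years of age. Groups were set by a transposable element in GTF2I, labelled ins where it was present on 1 allele (3 dogs, here ancestral dogs 1 to 3) and noins where both alleles were derived and lacked it (3 dogs, here derived dogs 1 to 3). No dog carried the element on both alleles, and each dog gave 1 E2F1 list and 1 H3K27ac list; values per dog are given in the order of these numbers. Brainstem mixes many cell types, so occupancy in few cells and weak occupancy in many cells cannot be told apart.

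The lists hold peaks and no reads, so depth is known only through the peaks themselves. The E2F1 lists held 88236, 85871 and 133654 peaks in the ancestral group and 109663, 163356 and 118957 in the derived group. The lowest local background that the peak caller applied was 0.770, 0.754 and 0.523 fragments in the ancestral group and 0.908, 1.03 and 0.469 in the derived group. Which library that background was taken from is not given in the sources used here, so it is no direct measure of the depth of the E2F1 library. Derived dog 2 had both the longest list and the highest background, and derived dog 3 had the lowest background; the genotypes overlapped in both measures. H3K27ac peaks covered 298, 216 and 232 Mb of chromosomes 1 to 38 in the ancestral group and 258, 253 and 267 Mb in the derived group. Their union over the 6 dogs covered 445 Mb, 20.2% of the 2204 Mb spanned by chromosomes 1 to 38, and left 79.8% outside.

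The question for the numbers per dog was whether the members were spread evenly over the dogs and whether the genotypes differed. Members numbered 30339, 22917 and 43560 in the ancestral group, or 12.8%, 9.65% and 18.3% of all members. The derived dogs contributed 45145, 50041 and 45583, or 19.0%, 21.1% and 19.2%. Every derived dog had more members than every ancestral dog, with ancestral dog 2 lowest and derived dog 2 highest. The mean was 32272 ± 10456 in ancestral and 46923 ± 2709 in derived dogs (SD, n = 3 each), a difference of 14651 members. That difference did not pass an exact two-sided permutation test over 20 assignments (p = 0.1, the lowest value reachable with 3 dogs per genotype; adjusted p = 0.4 over 4 tests). A p that misses the threshold does not show that the genotypes were alike.

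The number of members depended on how many peaks of each list were used. With the 84014 peaks of lowest q taken from each dog, members numbered 31844, 25040 and 25662 in the ancestral group and 36616, 21190 and 32871 in the derived group. The genotypes then overlapped, and derived dog 2 moved from the most members to the fewest. The difference between genotypes was 2710 members at an equal number of peaks, was 531 at the thresholds of the study (q below 0.0005 for E2F1 and below 0.05 for H3K27ac), was -0.667 at an E2F1 q below 1e-05, and was 22003 without ancestral dog 3. How far list length and background account for the difference was not tested.

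As a share of all merged regions that held a peak of the dog, members made up 35.5%, 27.8% and 34.1% in the ancestral group and 42.5%, 31.8% and 39.98% in the derived group. Derived dogs 1 and 3 lay above all ancestral dogs, while derived dog 2 lay below ancestral dogs 1 and 3. The difference was 5.60 percentage points, 32.5 ± 4.09% against 38.1 ± 5.58% (SD, n = 3 each; exact permutation test, p = 0.3, adjusted p = 0.533). It was 3.27 points without ancestral dog 2, 9.07 points without derived dog 2 and 3.14 points with an equal number of peaks per dog.

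Members were short. Over all members the median width was 234 bp, 5% were narrower than 167 bp, 5% were wider than 406 bp, and the widest spanned 1667 bp. Every member consisted of 1 peak, so that region and peak coincide. The median width was 270, 254 and 217 bp in the ancestral group and 220, 229 and 223 bp in the derived group. Ancestral dogs 1 and 2 had the widest members and ancestral dog 3 the narrowest, so the genotypes overlapped. The difference, derived minus ancestral, was -23 bp, from 247 ± 27.2 to 224 ± 4.58 bp (SD, n = 3 each; exact permutation test, p = 0.4, adjusted p = 0.533). It was -11.8 bp without ancestral dog 1 and -38.3 bp without ancestral dog 3, and it was -14 bp with an equal number of peaks per dog, -8.33 bp at the thresholds of the study and -1.67 bp at an E2F1 q below 1e-05.

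Each list had its own lower limit of width. The narrowest member measured 217, 199 and 155 bp in the ancestral group and 165, 169 and 151 bp in the derived group, and the median lay no more than 72 bp above it in any dog. Members thus crowded towards the narrowest peak that each list admitted. Together they covered 60.2 Mb.

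Within a dog, members were narrower than the single-animal regions inside H3K27ac. The medians inside were 278, 267 and 227 bp in the ancestral group and 226, 245 and 228 bp in the derived group. Members were narrower in 6 of 6 dogs, with differences from -5 bp in derived dog 3 to -16 bp in derived dog 2. The mean difference was -9.67 ± 4.23 bp (SD, n = 6; exact two-sided sign-flip test over 64 assignments, p = 0.03125, adjusted p = 0.03125, the smallest that 6 dogs allow). Width is not independent of the rule, because a wider region meets an H3K27ac peak more easily. With regions classed by their summit base alone, the mean difference was -7.5 bp. With an equal number of peaks per dog, at the thresholds of the study and at an E2F1 q below 1e-05 the mean differences were -13.2, -23.2 and -42.2 bp. The exact p stayed at 0.03125 in these settings, and the adjusted p was 0.0625, 0.0938 and 0.0938, because other tests of the family had a higher p.

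The summit, the base of highest fragment pile-up, lay near the middle of most members. On a scale from 0 at the centre of the peak to 100 at its edge, the median offset of the summit was 30, 28.6 and 21.7 in the ancestral group and 30.4, 30.9 and 21.2 in the derived group. Ancestral dog 3 and derived dog 3, the dogs with the lowest backgrounds, had the most central summits. Over all members, 25.3% of summits lay nearer to the edge than to the centre.

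Summits of members were more central than those of single-animal regions inside H3K27ac, where the median offsets were 34.0, 32.8 and 25.0 in the ancestral group and 32.7, 32.8 and 24.1 in the derived group. The offset was lower in members in 6 of 6 dogs. The mean difference was -3.11 ± 0.937 (SD, n = 6; exact sign-flip test, p = 0.03125, adjusted p = 0.03125). By the same exact test it was -0.700 at the thresholds of the study (adjusted p = 0.188), -0.731 at an E2F1 q below 1e-05 (adjusted p = 0.156) and -2.46 with an equal number of peaks per dog (adjusted p = 0.0625). The offset was then higher in members in ancestral dog 2 (0.701) and derived dog 1 (0.014) at the thresholds of the study, in ancestral dog 2 (1.01) at a q below 1e-05 and in derived dog 2 (0.157) at equal numbers.

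Most members rested on few fragments. The fold enrichment and p value of a peak gave back a whole number of fragments at the summit for 99.998% of members. The median was 7, 7 and 5 fragments in the ancestral group and 7, 7 and 5 in the derived group. The most frequent number was 6, 6 and 4 in the ancestral group and 6, 7 and 4 in the derived group. In derived dog 3, 37.5% of members rested on exactly 4 fragments, and in ancestral dog 3, 33.4% did. At most 10 fragments stood at the summit of 95.2%, 94.4% and 97.9% of members in the ancestral group and of 95.3%, 93.9% and 97.9% in the derived group. Small fragment numbers were the rule in every list, and lowest in the dogs with the lowest background. They were not particular to members. In single-animal regions inside H3K27ac the median was 7, 7 and 5 fragments in the ancestral group and 7, 8 and 5 in the derived group. In recurrent regions outside H3K27ac it was 7, 8 and 6 in the ancestral group and 7, 8 and 6 in the derived group.

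Fold enrichment over the local background had a median of 3.90 among members, with 5% below 2.97 and 5% above 5.81. The median was 3.94 in single-animal regions inside H3K27ac and 4.08 in recurrent regions outside it. Ranked by q within its own list, the median member stood above 40.9% of the peaks. The local background was at the lowest value of the list for 26.3%, 45.2% and 38.9% of members in the ancestral group and for 41.4%, 47.0% and 37.4% in the derived group. For single-animal regions inside H3K27ac those shares were 18.5%, 21.5% and 17.1% in the ancestral group and 27.6%, 24.7% and 21.6% in the derived group. Members therefore lay at the lowest background more often in 6 of 6 dogs; this difference was described after the data were examined and was not tested.

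A q value below 0.0005, the threshold of the study, was reached by 60196 members (25.3%). The share was 28.7%, 37.7% and 27.4% in the ancestral group and 13.4%, 27.4% and 24.5% in the derived group. Ancestral dog 2, with the fewest members, had the highest share, and derived dog 1 the lowest. Among recurrent regions outside H3K27ac, counted once per region and dog, the share was 39.5%, 54.0% and 43.3% in the ancestral group. In the derived group it was 23.9%, 42.7% and 37.0%. Members had the lower share in each dog, a comparison without a test. The E2F1 lists that gave q also split these sets, so the comparison is not independent of the rule. For a recurrent region the peak of lowest q of the dog was taken, whereas each member held a single peak. When both study thresholds were applied before merging, 77500 of 181937 regions (42.6%) met the rule. Of these, 77.7% overlapped a member of the same dog, and the others met the rule only because peaks that missed a threshold had been dropped.

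Against single-animal regions inside H3K27ac, where 30.8%, 40.1% and 29.9% of regions in the ancestral group and 15.4%, 33.8% and 25.0% in the derived group had a q below 0.0005, members were weaker in 6 of 6 dogs. The difference was largest in derived dog 2, at -6.37 percentage points, and smallest in derived dog 3, at -0.596 points. The mean was -2.67 ± 1.94 points (SD, n = 6; exact sign-flip test, p = 0.03125, adjusted p = 0.03125). With an equal number of peaks per dog it was -1.49 points, derived dog 3 turned to 0.186 points, and the adjusted p was 0.0625.

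Although members shared no base with H3K27ac, they lay close to it. The median distance from the summit to the nearest H3K27ac peak of any dog was 3.80 kb. Within 1, 10 and 100 kb of H3K27ac lay 21.4%, 70.9% and 97.0% of members. Of all bases outside H3K27ac on chromosomes 1 to 38, 17.2%, 57.8% and 92.8% lay that near. Members were nearer to H3K27ac than the outside bases as a whole at each distance, in each dog.

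The share of members within 10 kb of H3K27ac was 69.0%, 70.5% and 71.7% in the ancestral group and 67.7%, 76.5% and 68.6% in the derived group. Derived dog 2 stood highest and derived dog 1 lowest, and the ancestral dogs lay between them. The difference between genotypes was 0.549 percentage points, 70.4 ± 1.36% against 70.9 ± 4.83% (SD, n = 3 each; exact permutation test, p = 1, adjusted p = 1). Its sign turned without derived dog 2 (-2.58 points) and without ancestral dog 1 (-0.357 points).

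Recurrent regions outside H3K27ac lay nearer still. Within 10 kb were 76.3%, 77.9% and 78.7% of those holding a peak of the ancestral dogs and 74.1%, 81.3% and 76.0% of those holding a peak of the derived dogs. Members were within 10 kb less often than recurrent regions in 6 of 6 dogs, with the smallest difference in derived dog 2 (-4.85 points). The mean difference was -6.71 ± 0.991 points (SD, n = 6; exact sign-flip test, p = 0.03125, adjusted p = 0.03125). A recurrent region counts for each dog with a peak in it (85860 entries for 36934 regions), so the 6 differences share regions and are not independent, and this p is too small. At the thresholds of the study it was -4.59 points, derived dog 1 turned to 1.25 points, and the adjusted p was 0.0938. By the same exact test it was -5.79 points with an E2F1 q below 1e-05, where derived dog 1 was at 2.84 points (adjusted p = 0.141), and with an equal number of peaks per dog -5.28 points (adjusted p = 0.0625).

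The size of the H3K27ac-free gap that held a member gave the same gradient. In gaps under 10 kb, members numbered 188 per Mb. They numbered 155 per Mb in gaps of 10 to 50 kb, 113 in gaps of 50 to 100 kb, 80.7 in gaps of 100 to 500 kb and 52.6 in gaps of 500 kb or more. Density was lower in each class of gaps than in the class before it in 6 of 6 dogs. The range was widest in derived dog 2, from 47.1 to 6.75 members per Mb, and derived dog 1 went from 31.9 to 11.8.

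Members far from H3K27ac were also less often strong. Within 1 kb of H3K27ac, 29.1%, 39.6% and 29.8% of members in the ancestral group and 13.6%, 30.3% and 25.7% in the derived group had a q below 0.0005. Beyond 100 kb the shares were 27.9%, 32.4% and 23.2% in the ancestral group and 11.8%, 19.6% and 19.9% in the derived group. The share was lower beyond 100 kb in 6 of 6 dogs, by 1.27 points in ancestral dog 1 and by 10.7 points in derived dog 2. This comparison was described after the data were examined and has no test.

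Members lay on all 38 chromosomes, at 108 per Mb of span and 135 per Mb of H3K27ac-free span. Chromosome 26 held the most, 155 per Mb, followed by chromosomes 9 (142), 5 (139) and 24 (138). Chromosome 32 held the fewest, 66.4 per Mb, and chromosome 22 the next fewest, 83.0. The densest chromosome had 2.33 times the density of the sparsest.

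The dogs shared this order. Chromosome 32 was the sparsest in 6 of 6 dogs and chromosome 26 the densest in 4. On 12 chromosomes all 6 dogs were above their own mean density, on 17 none was, and on 9 the dogs were mixed. Between pairs of dogs, Pearson's r of members per Mb over the 38 chromosomes ranged from 0.863 to 0.972, with a median of 0.904. Members of different dogs are different regions by the rule, while the chromosomes and their H3K27ac are common to all, so these values are a description and chromosomes are not replicates.

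Chromosomes with more H3K27ac held more members outside it. Over the 38 chromosomes, members per Mb had a Pearson's r of 0.834 and a Spearman's rho of 0.817 with the percentage covered by H3K27ac. Per Mb of H3K27ac-free span the values were 0.924 and 0.894. Chromosome 9, the richest in H3K27ac at 39.01%, held 233 members per H3K27ac-free Mb, and chromosome 32, at 10.9%, held 74.6. All chromosomes share the same 6 libraries per antibody, and no p is given.

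Bins of 1 Mb were described in the same way. Every one of the 2182 bins held at least 27 members, the median bin held 91, and 2179 bins held members of all 6 dogs. With the bins ranked by H3K27ac and divided into 5 classes, members numbered 70.0, 114, 139, 177 and 221 per H3K27ac-free Mb from the poorest class to the richest. Per bin, without regard to the H3K27ac-free length, they numbered 68.9, 104, 116, 128 and 117, so the richest class was then not the densest, and Pearson's r of members with H3K27ac over the bins was 0.223 (Spearman's rho 0.445). Per H3K27ac-free Mb the richest class had 3.15 times the density of the poorest, and recurrent regions outside H3K27ac had 6.17 times. The same ratio was 2.61, 2.74 and 3.36 in the ancestral group and 2.51, 5.61 and 2.53 in the derived group, so derived dog 2 stood apart and the genotypes overlapped. Counts per bin of pairs of dogs had a Pearson's r of 0.660 to 0.874 over the 2182 bins, with a median of 0.764.

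Members were denser towards the ends of chromosomes. Per H3K27ac-free Mb there were 158 in the first 5 Mb of the chromosomes, 187 in the last 5 whole Mb and 126 between them. Recurrent regions outside H3K27ac were also denser at the ends, with 28.5, 33.4 and 18.5 in these parts. H3K27ac covered a mean of 18.9%, 18.2% and 20.6% of these bins, so the ends were denser in members without being richer in H3K27ac. In each dog both ends were denser than the stretch between them, with the widest range in derived dog 2 (34.0, 44.2 and 25.7) and the narrowest in ancestral dog 2 (14.4, 16.1 and 12.4).

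The 3 bins with most members were chr9:50000001-51000000 with 418, chr8:72000001-73000000 with 404 and chr18:46000001-47000000 with 394. H3K27ac covered 11.4%, 8.02% and 14.6% of them. Derived dog 2 gave 150, 132 and 156 of these members, and no other dog gave more than 87 in any of these bins. All 6 dogs had members in each of them.

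The median distance from a member to the nearest E2F1 peak of another dog, of any class, was 1.41 kb, and 41.0% had such a peak within 1 kb. By dog the median was 1.51, 1.44 and 1.35 kb in the ancestral group and 1.55, 1.16 and 1.62 kb in the derived group. Over every position where a region of the dog's median member width would touch neither H3K27ac nor a peak of another dog, the median was 3.005, 2.92 and 3.09 kb in the ancestral group and 3.15, 3.04 and 3.20 kb in the derived group. Members were nearer to peaks of other dogs than these positions in each dog, which was described after the data were examined and has no test. More than 10 kb from the peaks of all other dogs lay 7.38% of members. Single-animal regions inside H3K27ac were closer to peaks of other dogs, with a median of 0.691 kb and 60.9% within 1 kb. Members of the same dog were a median of 13.0 kb apart.

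The more dogs shared an E2F1 region, the smaller was the share outside H3K27ac. It was 57.9% for 1 dog, 42.2% for 2, 29.3% for 3, 19.9% for 4, 14.4% for 5 and 13.7% for all 6. Merged regions grow wider as more dogs contribute, which makes an overlap with H3K27ac easier.

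The rule has a border set by H3K27ac and a border set by the other dogs. The 7273 members within 100 bp of an H3K27ac peak had a median width of 238 bp, a median fold of 3.94 and a q below 0.0005 in 29.2%. The 8691 single-animal regions that overlapped H3K27ac by at most 100 bp had 237 bp, 3.94 and 26.7%. The pooled medians of width and fold were close across that border. These values are pooled over dogs, which differ in width, fold and share of low q. Widths and folds were not compared within dogs, and the shares were not compared. On the border set by the other dogs, the 15270 members within 100 bp of the E2F1 peak of another dog had a q below 0.0005 in 28.8%. In regions outside H3K27ac shared by 2 dogs, the strongest peak of each dog had a q below 0.0005 in 33.2%. That value covers all such regions and not only those near the border. These shares are pooled over dogs too and were not compared.

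A small number of members had far higher fold enrichment than the rest. The highest −log10 q of any member belonged to derived dog 3, at chr3:5893455-5893830, with a fold of 18777, 174 kb from the nearest H3K27ac and 9.72 kb from the nearest E2F1 peak of another dog. Derived dog 2 had a member at chr34:39939478-39939668 with a fold of 1013 and one at chr6:74010479-74010744 with a fold of 1005. The strongest member of derived dog 1, at chr5:6728113-6728294, had a fold of 160. These were the only 4 members with a fold above 100, all in derived dogs, and their fragment numbers were not recovered. For the 3 with folds above 1000 the search, which ended at 1000 fragments, was too short, while for the member on chromosome 5 the reason was not determined. Folds of this size were not particular to derived dogs or to members: among recurrent regions outside H3K27ac the highest fold was 12667 in ancestral dog 2 and 16851 in ancestral dog 3. Whether these values reflect E2F1 binding was not tested.

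The other members among the 2 of highest −log10 q in each dog had lower folds. In derived dog 1 the member at chr1:22348910-22349321 had a fold of 32.6 and 66 fragments, and in derived dog 3 the member at chr18:10246744-10246994 had a fold of 17.7 and 25 fragments. In ancestral dog 1 they were chr6:33555616-33556055 (fold 14.1) and chr35:4951383-4951602 (fold 13.6). In ancestral dog 2 they were chr2:552632-552889, with a fold of 18.3 and 107 fragments over a local background of 4.89, and chr15:7918708-7919020, with a fold of 18.2 and 31 fragments. In ancestral dog 3 they were chr30:1470953-1471257 (fold 15.5) and chr3:52861641-52862000 (fold 15.2). No member of an ancestral dog exceeded a fold of 18.3, and a fold above 20 was reached by 2, 3 and 1 members of derived dogs 1, 2 and 3. The member on chromosome 15 lay 0.004 kb from an E2F1 peak of another dog, so it met the rule narrowly.

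The 3 widest members all came from derived dog 2. They were chr9:51343032-51344698 (1667 bp), chr9:856086-857688 (1603 bp) and chr10:17011903-17013352 (1450 bp), with folds of 4.52, 4.49 and 5.30. None of these was among the strongest members. The 3 members farthest from H3K27ac lay together on chromosome 38, in the longest H3K27ac-free gap, of 2002 kb. They were chr38:9606668-9606937 of derived dog 3, 997 kb away, chr38:9583313-9583569 of ancestral dog 2, 981 kb away, and chr38:9571213-9571441 of derived dog 3, 969 kb away. These rested on 4, 6 and 4 fragments.

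Chromosome 6 from 5.5 to 6.5 Mb holds GTF2I, the gene that holds the element, which encodes a general transcription factor. Members there numbered 17, 13 and 31 in the ancestral group and 32, 65 and 22 in the derived group, 180 in all. Derived dog 2 had the most and ancestral dog 2 the fewest, and the genotypes overlapped. For scale, the bins of the same length described above held from 27 to 418 members, with a median of 91. The interval thus held more members than the median bin and fewer than the fullest bin. The share of its merged regions that met the rule was not computed. The member of highest −log10 q in this interval was chr6:5671601-5671805 of ancestral dog 2, with a fold of 7.52, 15 fragments and 2.17 kb to the nearest H3K27ac.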

How the data were processed

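E2F1 and H3K27ac ChIP-seq lists of 6 dogs were used, grouped by the genotype in the labels; the 6 input samples were not analysed here. The authors moved molecular identifiers into the read names (umi_tools), trimmed with Trim Galore 0.0.6, mapped to CanFam3.1 by bowtie, retained reads that mapped more than once, and took out duplicates. Peaks were then called dog by dog in macs2 2.2.0, narrow for E2F1 and broad for H3K27ac. Versions are those of the submitters' processing notes. The methods list the settings of the peak calls without naming a control, and describe the removal of sites enriched in input as part of the later differential analysis, so it was not assumed for these lists. The deposited lists give a score, which was not used, and the fold enrichment, a ratio of the authors over the local background. Deposited p and q come as −log10, at the summit or averaged over broad peaks. The other deposited column used is the summit position, in bases from the peak start. Lists were not normalized between dogs, and q was tested only between sets of the same dog. Folds and q that are pooled or set side by side over dogs are descriptions. E2F1 lists begin near q = 0.05, less strict than the study's threshold of 0.0005. H3K27ac lists begin at a −log10 q near 1.00, less strict than the study's threshold of 0.05. All deposited peaks were used, so members also lie outside H3K27ac peaks that miss that threshold.

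Overlap meant at least 1 bp, and coordinates are 1-based on CanFam3.1. Distances to H3K27ac run from the summit to the nearest edge, while distances to E2F1 peaks of other dogs, between members and within 100 bp of a border run from edge to edge. Spans run from base 1 to the highest peak end, and assembly gaps count as bases. In place of randomly moved positions, the exact share over all bases outside H3K27ac was computed. Fragments h and background λ at a summit were solved from fold = (h + 1)/(λ + 1) and the Poisson upper tail, and accepted at a relative tolerance of 1e-04. Genotypes were compared with exact two-sided permutation tests and sets within dogs with exact sign-flip tests, each adjusted over 4 tests by Benjamini-Hochberg at a threshold of 0.05, or over 3 where an alternative left 1 within-dog result without a value. The code was tested on simulated data. Members, tests and lists were chosen with earlier results of these data known. Named regions are the 2 members of highest −log10 q per dog, the 3 widest, the 3 farthest from H3K27ac, the 3 bins of 1 Mb with most members, and the members of chromosome 6 from 5.5 to 6.5 Mb. Replicate numbers mark different dogs. Genes and sequences at the regions need a CanFam3.1 annotation and genome and were not analysed here. Python 3.11.15, numpy 2.4.6, pandas 2.3.3 and scipy 1.17.1 were used.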

Additional observations from a re-analysis of the deposited data

How the results depend on the processing

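Of 61 values for the 4 within-dog results under alternative settings, 27 passed the threshold in the same direction and 34 kept the direction without passing. The 4 genotype comparisons did not pass in any setting, and no setting could have let them pass, since 3 dogs against 3 give no p under 0.1. The number of members was 77500 at the thresholds of the study and 24050 at an E2F1 q below 1e-05. In the latter setting the genotype difference in members per dog was -0.667, and with only the H3K27ac list of the same dog used the difference in the share within 10 kb was -0.211 points; for these the cause was not tested. At the thresholds of the study, at an E2F1 q below 1e-05 and at 84014 peaks per dog, members differed from single-animal regions inside H3K27ac by -23.2, -42.2 and -13.2 bp in width and by -0.700, -0.731 and -2.46 in summit offset, and from recurrent regions by -4.59, -5.79 and -5.28 points within 10 kb. At 84014 peaks per dog the share with a q below 0.0005 differed by -1.49 points. All of these within-dog differences missed the adjusted threshold. For width in the 3 settings, and for the share within 10 kb at 84014 peaks, the exact p was still 0.03125 and only the adjustment over the family changed; for the others the cause was not tested. With each dog left out in turn, the number of members ran from 207792 to 229682, and the genotype difference from 10293 to 22003 members, from 3.27 to 9.07 points of the regions of a dog, from -38.3 to -11.8 bp in width and from -2.58 to 2.24 points within 10 kb, negative without ancestral dog 1 (-0.357) and derived dog 2 (-2.58). The within-dog differences ran from -11.4 to -10.4 bp, from -3.35 to -2.61 points with a q below 0.0005, from -3.33 to -3.03 in summit offset and from -7.67 to -5.85 points within 10 kb. With 5 dogs the exact sign-flip test cannot go below p = 0.0625, so every within-dog call was lost by construction. With the replicate number as a replicate block the genotype differences were 14651 members, 5.60 points, -23 bp and 0.549 points (exact sign-flip test over 8 assignments, p = 0.25, 0.25, 0.5 and 1), and no call changed. Deviations of same-numbered dogs had correlations of 0.515, 0.481 and -0.132, each over the same 4 measures. So few values cannot show whether the numbers pair the dogs. By the labels, same-numbered dogs of the genotypes are different animals. The share with a q below 0.0005 has no value where only such peaks were kept. With 4 to 7 fragments at most summits, a missing peak in another dog does not show that E2F1 was absent there.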

Other observations

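On chromosome X, which was left out above, the same rule kept 7154 of 11718 merged regions (61.1%), or 57.8 per Mb of span against 108 per Mb on chromosomes 1 to 38. All dogs were male, so X was present in fewer copies than the other chromosomes. How far this bears on the density and the share was not tested. Members on X numbered 778, 684 and 1456 in the ancestral group and 1334, 1293 and 1609 in the derived group. Ancestral dogs 1 and 2 had the fewest, and derived dog 3 the most, whereas on chromosomes 1 to 38 derived dog 2 had the most.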
